A study of Mus musculus with 4 samples.

Results

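The transcripts described here are 10 genes of the nuclear factor κB (NF-κB) pathway, chosen by name: the subunits Rel, Rela, Relb, Nfkb1 and Nfkb2, the inhibitors Nfkbia, Tnfaip3 and Nfkbid, and the inflammatory cytokines Tnf and Il1b. All 10 were found among the 16230 genes of the deposited table, and all 10 passed the filter on low values. RNA came from cells sorted for CD3 and CD4 from spleens of Rag-/- mice with colitis, 8 weeks after naive CD4 T cells had been transferred into them. The donor T cells carried either CD4creERafl/fl, floxed alleles of the estrogen receptor α gene Esr1 together with a Cre recombinase driven from Cd4 (2 libraries), or ERafl/fl, the floxed alleles alone (2 libraries). The floxed alleles were thus common to both groups. Cd4-driven Cre acts in T cells from their development in the thymus onwards, in CD8 as well as CD4 T cells. Rag-/- hosts make no T or B cells of their own, but keep macrophages, dendritic cells, neutrophils, natural killer cells and red cell precursors. No label ties a library to its own mouse. The spread within a group may therefore be technical, and each p-value measures that spread alone.

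NF-κB proteins are dimers built from the 5 subunits. They wait in the cytoplasm bound to inhibitors of the IκB family, are freed when receptors for antigen, tumour necrosis factor (TNF), interleukin-1 or microbial products activate the IκB kinase, and then enter the nucleus. The inhibitor genes Nfkbia and Tnfaip3 are themselves targets, so the pathway turns itself down. In CD4 T cells this pathway serves activation and survival after antigen contact, and in macrophages, dendritic cells and neutrophils it drives the inflammatory cytokines Tnf and Il1b.

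NF-κB dimers bind a short DNA sequence, the κB site, near the genes they act on. The 250 bases before the annotated start of each gene were searched on both strands for the 10-letter NF-κB consensus (RefSeq promoters, GRCm38.p6). Of the 10 members, 8 had a promoter entry, and 5 of these 8 held a match before at least 1 of their starts: Nfkb2, Rel, Nfkbia, Tnfaip3 and Nfkbid. Among all 27025 genes with an entry, 4.46% held one. Shown are the promoters of 2 inhibitors and of the subunit gene whose difference between the groups was the widest among the subunits, with Il1b, the member with the widest difference of all, for comparison. Capitals mark matched bases on either strand, with overlapping matches merged.
Nfkbia, chr12:55492648-55492897, minus strand: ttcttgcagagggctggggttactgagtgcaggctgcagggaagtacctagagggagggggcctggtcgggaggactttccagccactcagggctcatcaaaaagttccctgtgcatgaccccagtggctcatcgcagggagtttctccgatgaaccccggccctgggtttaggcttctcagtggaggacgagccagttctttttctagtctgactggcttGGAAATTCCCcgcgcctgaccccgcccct
Tnfaip3, chr10:19015411-19015660, minus strand: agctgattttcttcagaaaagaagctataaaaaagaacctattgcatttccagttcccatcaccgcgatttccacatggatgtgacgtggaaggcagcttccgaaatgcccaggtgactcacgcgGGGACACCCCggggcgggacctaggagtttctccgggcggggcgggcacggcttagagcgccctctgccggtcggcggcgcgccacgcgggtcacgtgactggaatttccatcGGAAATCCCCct
Rel, chr11:23770970-23771219, minus strand: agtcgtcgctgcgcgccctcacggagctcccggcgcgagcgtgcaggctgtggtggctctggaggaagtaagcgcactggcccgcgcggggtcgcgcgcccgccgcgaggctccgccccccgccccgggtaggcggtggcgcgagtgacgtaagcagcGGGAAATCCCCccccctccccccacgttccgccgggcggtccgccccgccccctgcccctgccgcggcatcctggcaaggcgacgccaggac
Il1b, chr2:129371140-129371389, minus strand: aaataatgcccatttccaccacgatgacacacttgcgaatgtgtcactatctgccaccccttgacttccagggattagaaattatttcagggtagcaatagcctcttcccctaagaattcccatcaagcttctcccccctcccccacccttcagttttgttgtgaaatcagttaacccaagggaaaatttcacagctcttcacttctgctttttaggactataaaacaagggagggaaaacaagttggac
The match of Nfkbia began 29 bases before the start of transcription, and the merged matches of Rel began 92 bases before it. Tnfaip3 had matches beginning 125 and 12 bases before the first of its 2 annotated starts. In Il1b, Tnf and Rela these letters were not in this window. A match describes the sequence and does not show binding in these cells.

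Transcript levels are given in FPKM, the number of fragments scaled to transcript length and library size, as the authors deposited them, and levels of different genes are therefore compared per length. Estimated depth was shallow: 508000 and 566000 fragments in libraries 1 and 2 labelled CD4creERafl/fl and 709000 and 676000 in ERafl/fl controls 1 and 2. On a 2000-base transcript, each fragment added 0.72 to 1.0 FPKM. Esr1 itself stood at 0 and 1.96 FPKM in the libraries labelled CD4creERafl/fl, against 0.23 and 0 FPKM in the controls, and this level does not check the labels. The deposited value covers the whole transcript, not the floxed part alone. Differences were tested with limma on log2(FPKM + 1) over 12896 genes with a mean of at least 1 FPKM, and called at a Benjamini-Hochberg adjusted p under 0.05.

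The libraries also differed in the levels of cell type markers, and the values are needed beside every result below. All 19 T cell markers were lower in both libraries labelled CD4creERafl/fl than in both controls. Their summed level was 453 and 390 FPKM there, against 2062 and 1659 FPKM in the controls. No T cell marker was listed at 0 in any library, which does not by itself show how many T cells each held. Of 20 tested macrophage and monocyte markers, 19 were higher in both libraries labelled CD4creERafl/fl than in both controls. The summed level of the 21 listed markers was 2923 and 3383 FPKM, against 119.7 FPKM in control 1 and 548 FPKM in control 2. Cd14, Adgre1, Mertk, Marco and Fcgr1 were listed at 0 in control 1, and Vsig4 in all but library 2 labelled CD4creERafl/fl. Neutrophil markers summed to 5913 and 7879 FPKM, against 2127 and 4454 FPKM, and S100a8 and S100a9 made up most of each sum. Of 16 neutrophil markers, 8 were higher without overlap and 8 overlapped. Ly6g and Elane were listed at 0 in control 1, Ctsg in library 1 and Prtn3 in library 2 labelled CD4creERafl/fl. Natural killer cell markers summed to 81.0 and 163.9 FPKM, against 27.1 and 48.9 FPKM, and of 8 markers 5 were higher and 1, Eomes, was lower without overlap. Of the 8, 7 were listed at 0 in control 1, 4 in control 2 and 2 in library 1 labelled CD4creERafl/fl. Eomes made up the whole sum of control 1 and most of that of control 2. Of 12 dendritic cell markers, 8 were higher and 2 lower without overlap, and 5 were listed at 0 in control 1. The erythroid markers of control 1 summed to 218 FPKM, against 5119 to 8221 FPKM in the other 3 libraries. The part of these cells in the results below was not tested. In bulk samples, fewer cells of a type and less RNA per cell cannot be told apart.

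None of the 10 members passed the threshold in either direction, where limma called 0.0543% of all tested genes, 0.0155% higher and 0.0388% lower. Unadjusted p-values under 0.05 were found for 2 members, Il1b and Rel, against 15.9% of all tested genes. Without overlap between the groups' libraries, 4 members were higher (Il1b, Rel, Rela and Relb) and 1 was lower (Tnfaip3) in the libraries labelled CD4creERafl/fl. Over all tested genes 23.2% were higher and 25.7% lower without overlap. The median log2 fold change of the members, libraries labelled CD4creERafl/fl minus controls on the log2(FPKM + 1) scale, was 0.08, beside -0.07 over all tested genes, and it turned to -0.14 without library 2 labelled CD4creERafl/fl.

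**Figure D1:**
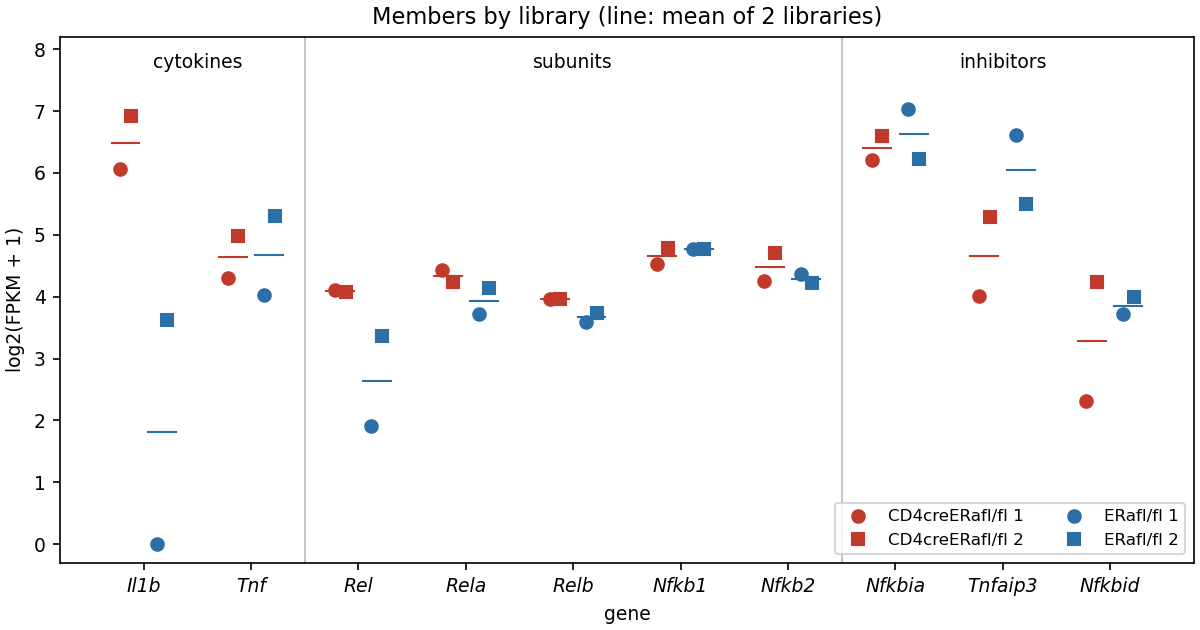
Level of each member in each library as log2(FPKM + 1), with libraries labelled CD4creERafl/fl in red and ERafl/fl controls in blue, and a line at the mean of the 2 libraries of a group. Il1b separated the groups most widely, Nfkb1 differed little among the 4 libraries, and control 1 was lowest for Il1b, Tnf, Rel, Rela and Relb and highest for Nfkbia and Tnfaip3.

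Il1b, which encodes the cytokine interleukin-1β made mainly by activated myeloid cells, showed the widest difference. Il1b (NCBI gene 16176; GRCm38 chromosome 2, 129364569 to 129371164) had 65.8 and 119.6 FPKM in the libraries labelled CD4creERafl/fl, was listed at 0 in control 1 and had 11.3 FPKM in control 2. Both libraries labelled CD4creERafl/fl were high, and the controls also differed from each other. The values correspond to an estimated 44 and 89.1 fragments, against 0 in control 1, where 3 fragments would be 3.22 FPKM, and 10.03 in control 2. Set against control 2 alone, the libraries labelled CD4creERafl/fl were 5.84-fold and 10.6-fold higher. The log2 fold change was 4.68 ± 1.16 (SE; 95% interval 1.80 to 7.56; unadjusted p = 0.00782, adjusted p = 0.174 in limma), and it did not pass. Only 7 of the 12896 tested genes had a higher log2 fold change. Without control 1 it was 2.87, and without control 2 it was 6.49. Exons of Il1b share 25 bases with the antisense gene Il1bos, and the sources used here do not say whether counting used strand.

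Myeloid transcripts were also higher in the libraries labelled CD4creERafl/fl, and their part in the values of Il1b was not tested. Lyz2, the lysozyme of macrophages and neutrophils, had 548 and 1304 FPKM in those libraries, against 50.7 and 162 FPKM in the controls. Hmox1, the heme oxygenase abundant in macrophages that clear red cells, had 399 and 453 FPKM, against 7.94 and 41.6 FPKM. Of the neutrophil genes, S100a8 had 2176 and 2525 FPKM, against 607 and 1448 FPKM, and S100a9 had 2505 and 3662 FPKM, against 914 and 2032 FPKM. For every FPKM of Lyz2 there were 0.12 and 0.0917 FPKM of Il1b in the libraries labelled CD4creERafl/fl and 0.0696 in control 2. For every FPKM of S100a8 there were 0.0303 and 0.0474 FPKM of Il1b, against 0.00778 in control 2, a ratio chosen, like that to Lyz2, after the values were seen. In control 1, where Il1b was listed at 0, both ratios were 0. Genes near in pattern were sought among the tested genes, with short RNAs and genes with Gm or Rik symbols left out. Nearest to Il1b over the 4 libraries, by Euclidean distance on row-centred log2(FPKM + 1), were Slpi (distance 0.42), Fcna (0.44) and Slc40a1 (0.49). Slc40a1, which encodes the iron exporter ferroportin, is a listed macrophage marker here.

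Tnf, the cytokine whose receptors activate NF-κB, showed no clear difference. Tnf (NCBI gene 21926; chromosome 17, 35199367 to 35202007) had 18.8 and 30.5 FPKM in the libraries labelled CD4creERafl/fl, against 15.3 and 38.6 FPKM in the controls. Both the lowest and the highest value were in controls. The log2 fold change was -0.025 ± 0.53 (SE; 95% interval -1.35 to 1.3; adjusted p = 0.986 in limma), an interval that leaves room for a change of more than 2-fold in either direction. Its sign turned with median-ratio scaling, at 0.035. Levels of Il1b were 3.51 and 3.92 times those of Tnf in the libraries labelled CD4creERafl/fl, and 0.292 times in control 2. In control 1 this ratio was 0, as Il1b was listed at 0 there. Nearest in pattern to Tnf, with the same genes left out, were Polb (distance 0.12), Ccnj (0.17) and Lyrm4 (0.17). In 4 libraries such nearness is a description of these samples only.

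Rel, which encodes c-Rel, the subunit most tied to lymphocyte activation, differed most among the subunits. Rel (NCBI gene 19696; chromosome 11, 23736847 to 23770969) had 16.2 and 15.9 FPKM in the libraries labelled CD4creERafl/fl, against 2.77 and 9.29 FPKM in the controls. The libraries labelled CD4creERafl/fl lay close together, and control 1 was low. The log2 fold change was 1.45 ± 0.57 (SE; 95% interval 0.04 to 2.87; unadjusted p = 0.0459, adjusted p = 0.308 in limma). Without control 1 it was 0.73, and without control 2 it was 2.18. The lowest value rests on an estimated 14.6 fragments if the authors' transcript had the 7466 bases of the GENCODE one, and on fewer if it was shorter.

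Rela and Relb were also higher without overlap, by small amounts. Rela, which encodes p65, the main activating subunit of the canonical pathway (NCBI gene 19697; chromosome 19, 5637442 to 5648134), had 20.6 and 17.8 FPKM in the libraries labelled CD4creERafl/fl, against 12.1 and 16.6 FPKM in the controls. Its log2 fold change was 0.41 ± 0.36 (SE; limma adjusted p = 0.611). Relb, the partner of p52 in the non-canonical pathway (NCBI gene 19698; chromosome 7, 19606217 to 19629438), had 14.6 and 14.5 FPKM, against 11.1 and 12.3 FPKM. Its log2 fold change was 0.29 ± 0.35 (SE; limma adjusted p = 0.717). Neither difference passed. The values of Rela rest on an estimated 27.95 and 26.96 fragments in the libraries labelled CD4creERafl/fl, against 23.01 and 30.03 in the controls. Those of Relb rest on 16.03 and 17.85, against 17.09 and 18.08, at the length of its longest GENCODE transcript. With so few fragments, the near-equal values of Relb do not show precision. The part of counting error in both differences was not tested. Without control 1 the log2 fold change of Rela was 0.19, and with all 4 libraries the difference was about as wide as that between the controls, at 0.41 and 0.42 on the log2 scale.

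Nfkb1 and Nfkb2 encode the precursors p105 and p100, which act as inhibitors until they are processed to the subunits p50 and p52. Nfkb1 (NCBI gene 18033; chromosome 3, 135584655 to 135691969) had 22.1 and 26.7 FPKM in the libraries labelled CD4creERafl/fl, against 26.2 and 26.4 FPKM in the controls. Its log2 fold change was -0.11 ± 0.32 (SE; 95% interval -0.90 to 0.68; adjusted p = 0.889 in limma). Nfkb2 (NCBI gene 18034; chromosome 19, 46300994 to 46312400) had 18.0 and 25.1 FPKM, against 19.6 and 17.6 FPKM, with a log2 fold change of 0.19 ± 0.35 (SE; 95% interval -0.69 to 1.06; adjusted p = 0.827 in limma). The groups overlapped in both genes. Exons of Nfkb2 overlap AC114539.1 over 531 bases and Psd over 299 bases on the opposite strand, out of 4584, so fragments of these genes may be mixed.

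Summed over the 5 subunit genes, the level was 91.4 and 100.1 FPKM in the libraries labelled CD4creERafl/fl, against 71.8 and 82.2 FPKM in the controls. Rel made up 17.7% and 15.9% of this sum in the libraries labelled CD4creERafl/fl, against 3.86% and 11.3% in the controls. Nfkb1 made up 24.1% and 26.7%, against 36.5% and 32.1%. The share of Relb lay between 14.5% and 15.9% in all 4 libraries. These sums follow from the levels above and were not tested.

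**Figure D2:**
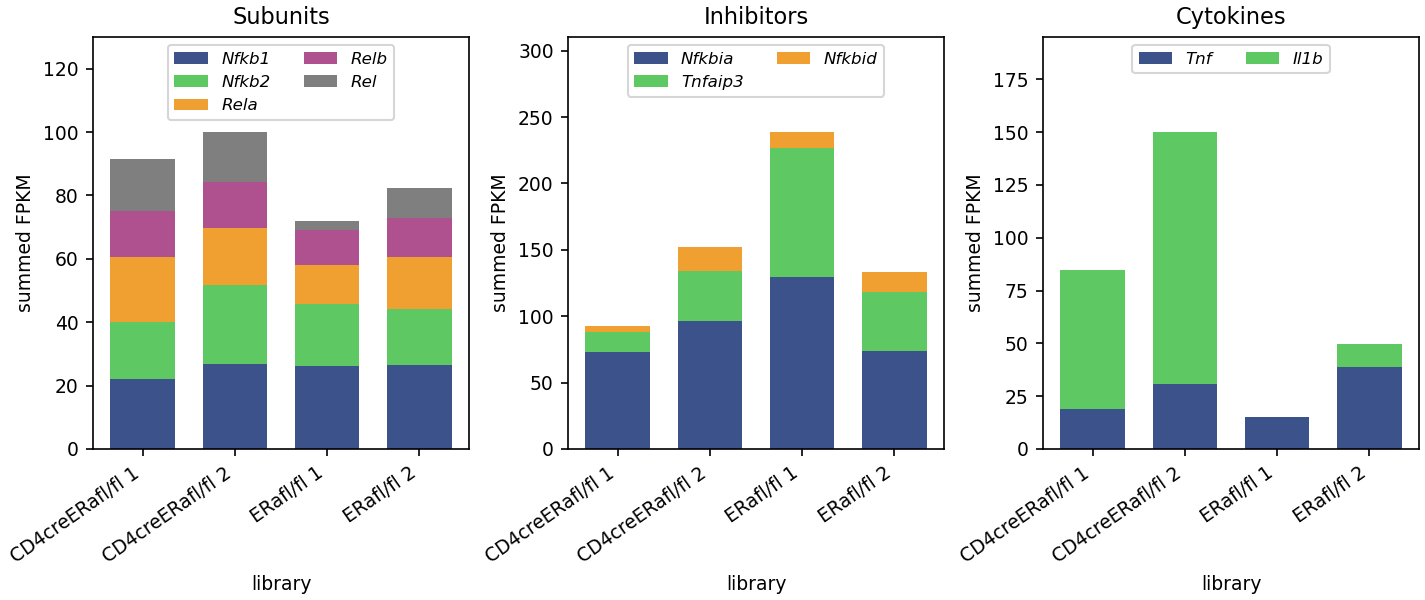
FPKM of the subunit, inhibitor and cytokine genes stacked by library, with the libraries labelled CD4creERafl/fl left of the ERafl/fl controls. Rel takes 17.7% and 15.9% of the subunit sum in the libraries labelled CD4creERafl/fl and 3.86% and 11.3% in the controls, control 1 has the tallest inhibitor bar (239 FPKM), and Il1b fills most of the cytokine bars of the libraries labelled CD4creERafl/fl.

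Tnfaip3, which encodes the ubiquitin-editing inhibitor A20, was the only member lower without overlap. Tnfaip3 (NCBI gene 21929; chromosome 10, 19000910 to 19015410) had 15.2 and 38.0 FPKM in the libraries labelled CD4creERafl/fl, against 97.1 and 44.0 FPKM in the controls. Library 2 labelled CD4creERafl/fl and control 2 lay close to each other, and the other 2 libraries stood at the ends. The log2 fold change was -1.40 ± 0.58 (SE; 95% interval -2.86 to 0.05; unadjusted p = 0.0556, adjusted p = 0.325 in limma). Without library 1 labelled CD4creERafl/fl it was -0.77, and without control 1 it was -0.84.

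Nfkbia, which encodes IκBα, the inhibitor that is degraded and resynthesised in each round of activation, had the highest mean level of the members. Nfkbia (NCBI gene 18035; chromosome 12, 55489409 to 55492647) had 73.2 and 96.3 FPKM in the libraries labelled CD4creERafl/fl, against 129.6 and 74.1 FPKM in the controls. Control 1 was the high library and the groups overlapped. The log2 fold change was -0.22 ± 0.37 (SE; 95% interval -1.15 to 0.70; adjusted p = 0.803 in limma). For every FPKM of Nfkbia there were 0.207 and 0.395 FPKM of Tnfaip3 in the libraries labelled CD4creERafl/fl, against 0.749 and 0.594 in the controls.

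Nfkbid encodes IκBNS, a nuclear IκB protein that binds NF-κB on its target genes. Nfkbid (NCBI gene 243910; chromosome 7, 30421731 to 30428749) had 3.98 and 17.9 FPKM in the libraries labelled CD4creERafl/fl, against 12.1 and 15.0 FPKM in the controls. Library 1 labelled CD4creERafl/fl was low, on an estimated 4.04 fragments, and library 2 was the highest of all. The log2 fold change was -0.58 ± 0.68 (SE; 95% interval -2.28 to 1.12; adjusted p = 0.712 in limma), and without library 1 labelled CD4creERafl/fl it was 0.38.

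**Figure D3:**
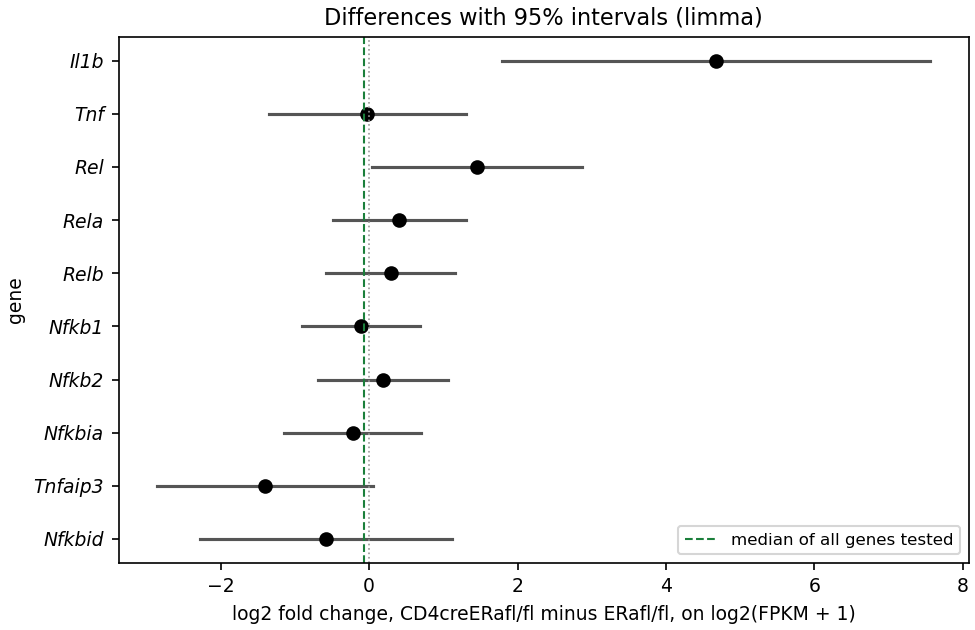
Log2 fold change of each member, libraries labelled CD4creERafl/fl minus ERafl/fl controls on log2(FPKM + 1), with its 95% interval from limma. The intervals of Il1b (1.80 to 7.56) and Rel (0.04 to 2.87) lie above 0 before adjustment, that of Tnfaip3 (-2.86 to 0.05) reaches just past 0, and those of the others span it.

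By mean level over the 4 libraries the order was Nfkbia (93.3 FPKM), Il1b (49.2), Tnfaip3 (48.6), Tnf (25.8), Nfkb1 (25.3), Nfkb2 (20.1), Rela (16.8), Relb (13.1), Nfkbid (12.2) and Rel (11.04). The ranges over libraries of all neighbours in this order overlapped. Il1b ranked second and first of the 10 in libraries 1 and 2 labelled CD4creERafl/fl, and last and ninth in the controls. Control 1 held the lowest value of 5 members and the highest of 2, while library 1 labelled CD4creERafl/fl held the lowest of 4 members, among them all 3 inhibitors. In control 1 the macrophage, dendritic cell, neutrophil, natural killer cell and erythroid markers were also lowest by median. The T cell markers were highest there, as the plot of row-centred values shows.

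**Figure D4:**
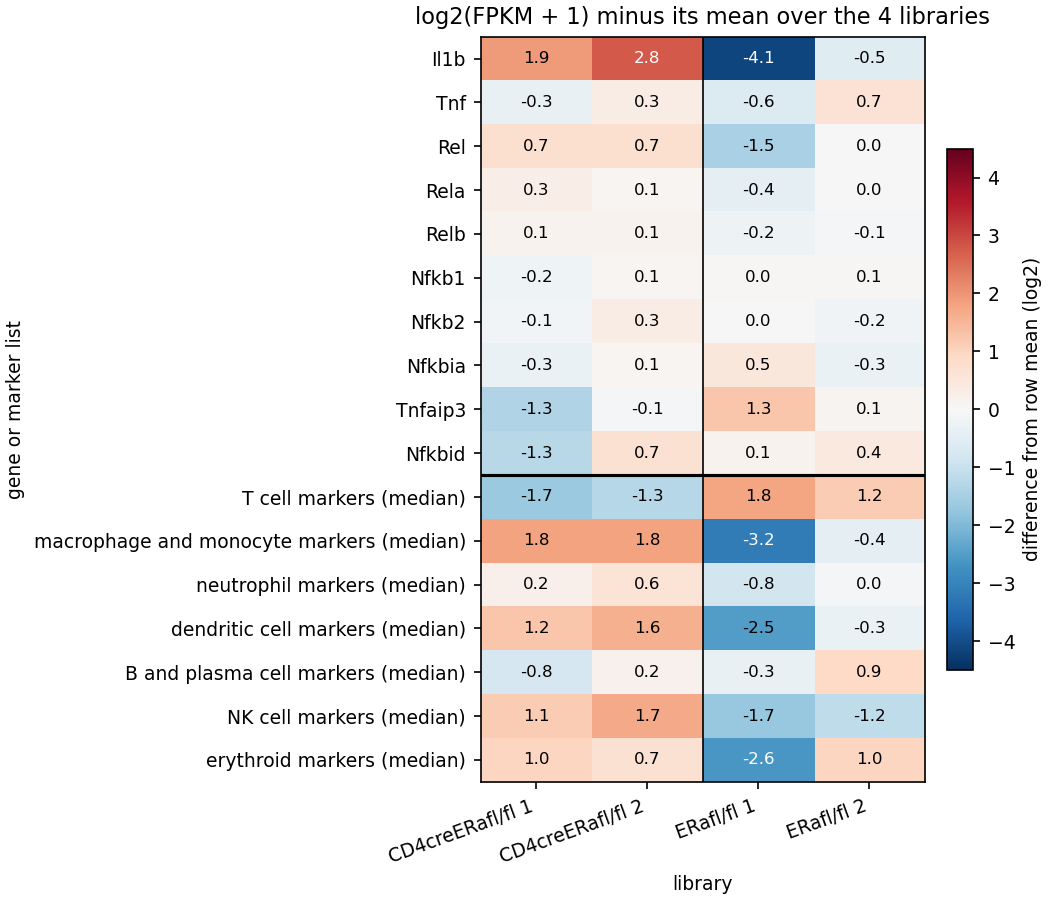
Log2(FPKM + 1) of each member, and the median of each marker list, minus its mean over the 4 libraries, with libraries labelled CD4creERafl/fl left of ERafl/fl controls. Il1b, Tnf, Rel, Rela and Relb have their lowest value in control 1. So do the macrophage, dendritic cell, neutrophil, natural killer cell and erythroid lists. Nfkbia and Tnfaip3 have their highest value there, as does the T cell list.

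The pathway's other genes were read from lists chosen by function, and no gene of those described passed the threshold in limma in either direction. Unadjusted p-values under 0.05 were found for 3 of 18 inhibitors, 0 of 21 canonical kinases and adaptors, 2 of 5 genes of innate entry, 2 of 13 of the non-canonical pathway, 3 of 13 ligands and receptors, and 8 of 22 target genes, where all tested genes gave 15.9%. Counts without overlap in these lists are to be read against 23.2% higher and 25.7% lower over all tested genes. The list of 18 other inhibitors held IκB proteins, ubiquitin-editing genes and some genes that are neither, such as Dusp1. Of these 18, 7 were higher and 6 lower without overlap, with a median log2 fold change of -0.07. The median was 0.19 without library 1 labelled CD4creERafl/fl and 0.16 without control 2. Nfkbiz, which encodes the nuclear protein IκBζ, had 22.6 and 28.5 FPKM in the libraries labelled CD4creERafl/fl, against 14.6 and 9.48 FPKM in the controls (log2 fold change of 1.04, SE 0.38, with a limma adjusted p of 0.286). Dusp1, which encodes a phosphatase that switches off MAP kinases, had 106.5 and 180.3 FPKM, against 85.4 and 46.3 FPKM. Rnf11, a partner of A20, had 13.1 and 11.8 FPKM, against 2.69 and 7.06 FPKM. These 3 had the smallest unadjusted p-values of the list, and all 3 were higher in the libraries labelled CD4creERafl/fl.

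Of 21 kinases and adaptors of the canonical pathway, 1 was higher and 4 were lower without overlap, against the 23.2% and 25.7% of all tested genes. The median log2 fold change was -0.15, with -0.33 without library 2 labelled CD4creERafl/fl and -0.06 without control 2. Irak4, the kinase next to interleukin-1 and Toll-like receptors, had 21.7 and 23.5 FPKM in the libraries labelled CD4creERafl/fl, against 12.0 and 13.4 FPKM in the controls (adjusted p = 0.335 in limma). Traf6, the ubiquitin ligase downstream of it, had 1.65 and 5.04 FPKM, against 6.40 and 5.96 FPKM. Birc2, which encodes a ubiquitin ligase at TNF receptors, had 6.92 and 12.9 FPKM, against 14.1 and 16.2 FPKM.

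Genes of the entry into the pathway from the T cell receptor and from innate receptors were read separately. Prkcq, the T cell protein kinase that starts the T cell receptor route, had 9.58 and 6.45 FPKM in the libraries labelled CD4creERafl/fl, against 40.01 and 29.8 FPKM in the controls (log2 fold change of -2.00, SE 0.38, with a limma adjusted p of 0.139). Bcl10, an adaptor of the same route, had 5.10 and 10.08 FPKM, against 15.4 and 9.23 FPKM. All 5 genes of innate entry were higher without overlap, where 23.2% of all tested genes were, with a median log2 fold change of 1.59. The median was 2.47 without control 2, 0.96 over the genes with a mean of at least 5 FPKM and 2.52 with a pseudocount of 0.1. Irak3, a brake on Toll-like receptor signalling in macrophages, had 9.37 and 5.41 FPKM in the libraries labelled CD4creERafl/fl, against 0 and 1.01 FPKM in the controls (adjusted p = 0.173 in limma). Tlr2 had 3.46 and 8.07 FPKM, against 0 and 1.56 FPKM, and Tlr4 had 2.50 and 2.24 FPKM, against 0.18 and 0.56 FPKM. Estimated fragments in the controls were few, at 0 and 2.09 for Irak3, 0 and 3.14 for Tlr2, and 0.52 and 1.53 for Tlr4. Tlr4 had only 5.13 and 5.12 fragments in the libraries labelled CD4creERafl/fl. T cell markers had a median log2 fold change of -2.54 and macrophage markers of 3.64 in the same comparison.

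Of 13 TNF and interleukin-1 ligands, receptors and processing genes, 5 were higher and 2 lower without overlap (23.2% and 25.7% of all tested genes), with a median log2 fold change of -0.03. The sign of this median turned when any 1 library was left out, at 0.10 to 0.43. The 2 TNF receptor genes were among those higher without overlap. Tnfrsf1b had 37.8 and 27.3 FPKM in the libraries labelled CD4creERafl/fl, against 10.6 and 8.51 FPKM in the controls (log2 fold change of 1.66, SE 0.36, with a limma adjusted p of 0.156). Tnfrsf1a had 14.6 and 14.8 FPKM, against 5.25 and 7.57 FPKM. Nlrp3, the sensor of the inflammasome that matures interleukin-1β, had 5.91 and 8.84 FPKM, against 0.71 and 2.23 FPKM. The control values of Nlrp3 rest on an estimated 2.0 and 6.0 fragments. Of 13 genes of the non-canonical pathway, 4 were higher and 6 lower without overlap, with a median log2 fold change of -0.30. The median was -0.89 without library 2 labelled CD4creERafl/fl, -0.63 without control 2, -0.49 without control 1 and -0.48 without library 1 labelled CD4creERafl/fl. Ltb, the lymphocyte ligand lymphotoxin β, had 25.3 and 43.8 FPKM in the libraries labelled CD4creERafl/fl, against 92.2 and 92.6 FPKM in the controls (log2 fold change of -1.44, SE 0.36, with a limma adjusted p of 0.176). Tnfrsf9, the activation receptor 4-1BB, was listed at 0 in both libraries labelled CD4creERafl/fl and had 2.87 and 7.11 FPKM in the controls. Traf3, the adaptor that restrains this pathway, had 2.20 and 2.03 FPKM, against 4.87 and 6.82 FPKM.

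Of 22 tested NF-κB target genes, 10 were higher and 3 lower without overlap (23.2% and 25.7% of all tested genes), with a median log2 fold change of 0.45. The median was 0.20 without library 2 and 0.78 without library 1 labelled CD4creERafl/fl, and 0.85 without control 2. Plaur, the urokinase receptor of activated myeloid cells, had 14.7 and 19.2 FPKM in the libraries labelled CD4creERafl/fl, against 3.83 and 3.01 FPKM in the controls (log2 fold change of 2.01, SE 0.40, with a limma adjusted p of 0.144). Cd83, a marker of mature dendritic cells that activated lymphocytes also carry, had 13.1 and 22.7 FPKM, against 3.36 and 3.52 FPKM. Cd69, an early activation marker of T cells, had lower values, with 6.20 and 5.56 FPKM in the libraries labelled CD4creERafl/fl, against 39.2 and 28.9 FPKM in the controls (log2 fold change of -2.33, SE 0.36, with a limma adjusted p of 0.12). Dendritic cell markers summed to 3507 and 3408 FPKM in these libraries, against 130.6 and 1019 FPKM. Cd74 and H2-Ab1 made up most of each sum except that of control 1, and those sums say little of the other listed markers. Cd74 had 2406 and 2251 FPKM, against 37.4 and 635.6 FPKM, and H2-Ab1 had 877 and 905 FPKM, against 9.75 and 253 FPKM. Lower without overlap were Xcr1, at 46.7 and 48.5 FPKM against 73.3 and 62.8 FPKM, and Ccr9, at 2.75 and 6.48 FPKM against 6.99 and 7.96 FPKM. Zbtb46, at 9.55 and 3.47 FPKM against 1.43 and 6.20 FPKM, and Siglech, at 5.51 and 12.20 FPKM against 0.65 and 12.22 FPKM, overlapped.

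**Figure D5:**
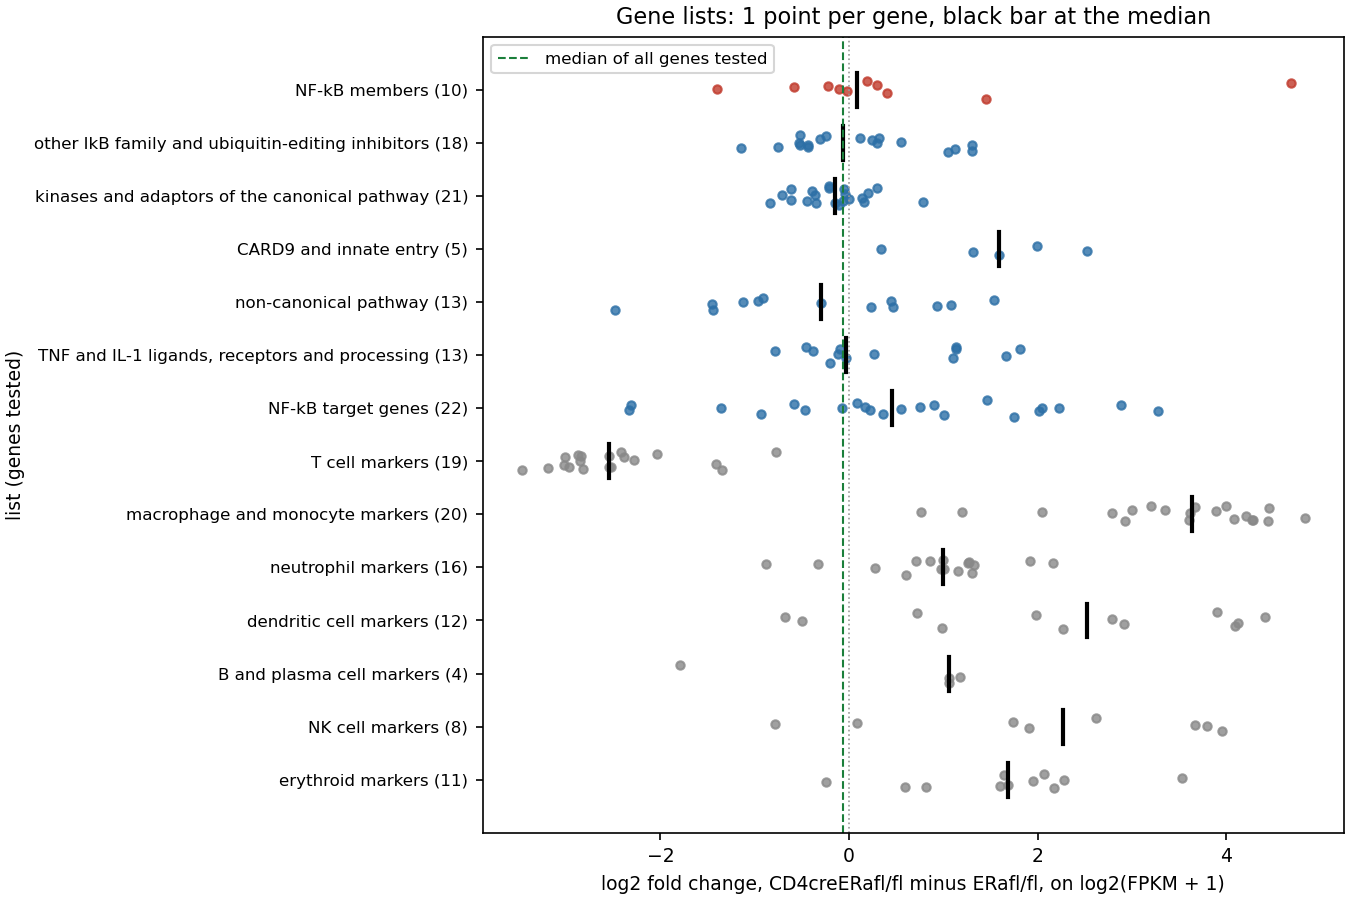
Log2 fold change of every tested gene of each list shown, libraries labelled CD4creERafl/fl minus ERafl/fl controls on log2(FPKM + 1), with a black bar at each median and the number tested in brackets. The NF-κB members centre near the median of all genes (0.08 and -0.07), while T cell markers lie below (-2.54) and macrophage markers above it (3.64).

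With voom weights on estimated fragments, which covered 6 of the members, limma called 1.04% of 8082 genes higher and 0.297% lower, and none of these 6 members was among them. The adjusted p was 0.0625 for Il1b (log2 fold change 5.20) and 0.142 for Rel (1.63) in that fit.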

How the data were processed

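The authors deposited one table of FPKM per gene and library. Per the submitters' processing notes, the tools were HISAT, Bowtie2 and RSEM and the build mm10, with no version or role given. mm10 is the GRCm38 assembly, whose RefSeq positions are given. The NCBI identifiers of 16183 genes matched that annotation and 47 did not. Symbols turned into dates by a spreadsheet (23) were restored from the identifiers.

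Genes of mean FPKM at least 1 were fitted on log2(FPKM + 1), a scale that understates changes of low genes, with limma 3.58.1 (R 4.3.3). Group was the single term, the variance prior followed the mean level, and tests were two-sided. With 2 libraries a group, an exact permutation test cannot go below p = 0.33, so none is given. Depth was estimated from steps in FPKM times transcript length less 40 bases (GENCODE M21 lengths over 800 bases, 10331 genes with 1 transcript). Of values up to 10 fragments, 75.1% to 76.2% lay within 0.2 of a whole number, and 32.8% to 33.3% with the step size displaced. The depths and the 40 bases were fitted to the low values of these genes, so this share describes the fit and is no separate check. Fragment limits cover counting error only. Values of 0 are written as listed, since RSEM can assign shared fragments elsewhere: 489 genes were listed at 0 in all 4 libraries. No member's transcripts shared 100 bases or more at 95% identity with another gene's (BLAST).

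Members and lists were chosen with earlier results of these data known. Markers listed at 0, and Eomes, Xcr1, Ccr9, Zbtb46 and Siglech, were named after their values were seen. By rule the text names all members, Esr1, and the 3 genes nearest in pattern to Tnf and Il1b. Of the macrophage, neutrophil and dendritic cell markers it names the 2 most abundant, and values of those of the other marker lists are not printed. Of each pathway list it names the 3 genes with the smallest p and any called. Same-numbered libraries did not deviate together (correlation -0.0016) and were not paired. A gene that this rule names, and the counts of its list, are not reported here.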

Additional observations from a re-analysis of the deposited data

How the results depend on the processing

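Across 14 alternatives no member was called in either direction by limma. Il1b, Rel, Rela and Relb kept a higher mean and Tnfaip3 a lower one in every fit that held them. These are the members without overlap between the groups, so leaving out any single library could not turn their sign. Most other settings refitted the same values, so the kept signs are no separate evidence. Adjusted p ranged from 0.0625 to 0.502 for Il1b, from 0.142 to 0.619 for Rel and from 0.288 to 0.751 for Tnfaip3. The median log2 fold change of the members, 0.08 with all libraries, was -0.14 without library 2 and 0.31 without library 1 labelled CD4creERafl/fl, the lowest and highest of the 14. The sign of Tnf turned with median-ratio scaling (0.035), without library 1 labelled CD4creERafl/fl (0.31) and without control 2 (0.62), and leaving out each library in turn gave -0.67 to 0.62. The same exercise gave -0.24 to 0.022 for Nfkb1 and -1.54 to 0.38 for Nfkbid, both positive without library 1 labelled CD4creERafl/fl. It gave -0.043 to 0.41 for Nfkb2, negative without library 2 labelled CD4creERafl/fl, and -0.62 to 0.18 for Nfkbia, positive without control 1. None of these values passed.

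Calls over all genes, 2 higher and 5 lower in limma, depended on some of the settings. The counts were also 2 and 5 with quantile normalization, median-ratio scaling and a robust variance prior. They were 0 and 0 with a pseudocount of 0.1, no filter, no trend, a replicate block or without 135 short RNAs, with 1813, 2266, 1996, 1888 and 2101 genes at an unadjusted p under 0.05. A mean FPKM of at least 5 gave 0 higher and 4 lower, and voom weights gave 84 higher and 24 lower. Leaving out each library in turn gave 0 to 0 in both directions, with 1234 to 2042 genes at an unadjusted p under 0.05. With 1 library left in a group, that library is assumed to vary like the others. The replicate block changed no call of a member. Depth was an estimated 508000 to 709000 fragments a library, and the lowest value of Nfkbid rests on about 4.04 fragments. Whether depth limited the calls was not tested.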

Other observations

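Further NF-κB target genes and the interleukin-1 pathway gene Il1rn, named here after their values were seen, had these values. Ccl3, a chemokine of activated macrophages and T cells, had 76.7 and 114.8 FPKM in the libraries labelled CD4creERafl/fl, against 1.84 and 32.8 FPKM in the controls (log2 fold change of 3.28, SE 1.12, with a limma adjusted p of 0.261). Its neighbour Ccl4 had 3.08 and 13.8 FPKM, against 2.21 and 13.9 FPKM, and the groups overlapped. Cxcl2, which attracts neutrophils, had 7.50 and 23.6 FPKM, against 0 and 2.83 FPKM, and Ptgs2, the inducible cyclooxygenase, had 3.99 and 16.3 FPKM, against 0.32 and 2.01 FPKM. Cxcl10 had 0 and 11.4 FPKM, against 10.4 and 25.9 FPKM. Csf2, the T cell cytokine GM-CSF, was listed at 0 in both libraries labelled CD4creERafl/fl and had 1.41 and 1.48 FPKM in the controls, under the filter. Each of these control values rests on an estimated 0.76 fragments. Fragments were also few for Ccl4, at 0.97 to 5.83 a library, and for Ccl3 in control 1, at 0.95. Cxcl2 had an estimated 4.07 and 14.3 fragments in the libraries labelled CD4creERafl/fl, against 0 and 2.045 in the controls. Ptgs2 had 8.9 and 40.8 fragments, against 1.0 and 6.0. Il1rn, which encodes the natural blocker of the interleukin-1 receptor, had 45.8 and 21.0 FPKM, against 14.2 and 13.1 FPKM (adjusted p = 0.317 in limma). The survival genes Traf1 and Cflar overlapped between the groups, at 25.7 and 29.3 FPKM against 30.8 and 27.1 FPKM, and at 39.9 and 36.0 FPKM against 36.9 and 34.6 FPKM. None of these passed the threshold.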
